A study of Mus musculus with 8 samples.

Results

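Prostaglandins and leukotrienes are short-lived lipid signals made from arachidonic acid, and 10 genes of their synthesis, breakdown and reception were examined in mouse livers after ischemia/reperfusion (I/R). The genes were Pla2g4a, Ptgs1, Ptgs2, Ptges, Hpgd, Ptger2, Ptger4, Alox5, Alox5ap and Ltb4r1. They were matched by symbol, and each matched 1 of the 54532 genes in the deposited table. RNA was sequenced from the livers of 4 METTL3-HKD and 4 METTL3-Flox mice, taken 6 h into the reperfusion that followed 1 h of ischemia. METTL3-HKD mice carried Alb-iCre and a METTL3 flox/- genotype, in which loxP sites flank exon 4. METTL3-Flox littermates were METTL3 flox/flox, so both groups carried floxed alleles, on lines crossed to C57BL/6. The paper calls METTL3-HKD mice heterozygous, chosen because mice with the full hepatocyte knockout died early. A deleted second allele would leave hepatocytes with no intact copy after Cre, which differs from that description. The minus sign itself is not defined, so the number of intact METTL3 copies in the other cells of METTL3-HKD livers is not stated. The paper describes the knockdown with albumin-iCre as specific to hepatocytes, where METTL3 was to be reduced rather than removed. Whole liver also holds leukocytes, endothelium and other cells. All 8 livers were reperfused, no unclamped liver was among them, and the methods give an age and sex only for purchased C57BL/6 mice, without tying them to these groups.

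Cytosolic phospholipase A2 (Pla2g4a) frees arachidonic acid from membranes. The cyclooxygenases Ptgs1 and Ptgs2 turn it into prostaglandin H2, from which Ptges makes prostaglandin E2. Hpgd oxidises prostaglandin E2 to an inactive form, and Ptger2 and Ptger4 are Gs-coupled receptors for it. In the other branch, Alox5 with its helper protein Alox5ap starts leukotriene synthesis, mainly in myeloid cells, and Ltb4r1 is the high-affinity receptor through which leukotriene B4 attracts neutrophils.

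Levels are given in the FPKM that the authors deposited, a measure of fragments corrected for gene length and library size, and always in the order of livers 1, 2, 3 and 4 of a group. SE stands for the standard error of a log2 fold change of METTL3-HKD over METTL3-Flox. The FPKM corresponded to 15861245 to 18434488 reads on genes per liver. Mettl3, the targeted gene, ranged from 1.17 to 1.56 FPKM in METTL3-HKD livers and from 1.16 to 1.84 FPKM in METTL3-Flox livers. Its groups overlapped (log2 fold change −0.16, adjusted p = 0.556 from limma), and its FPKM over the whole gene does not measure exon 4 alone. Among all 16645 genes that averaged 0.1 FPKM or more, 9.05% were higher and 6.63% were lower in METTL3-HKD mice at an adjusted p under 0.05 (1506 and 1104 genes, limma on log2(FPKM + 0.1) with Benjamini-Hochberg adjustment). Scaling each library to its reads on genes moved the median over all genes from −0.00 to 0.20 on the log2 scale and the calls to 2310 higher and 374 lower.

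Of the 10 genes, 4 were called higher in METTL3-HKD mice (Ptgs2, Alox5, Alox5ap and Ltb4r1) and 0 were called lower. All 4 also had a log2 fold change of at least 1, as did 4.7% of all genes tested, and 0 fell by as much, against 1.52% of all genes. For the same 4 genes, the lowest METTL3-HKD liver exceeded the highest METTL3-Flox liver, as in 12.7% of all genes, and the reverse held for 0 genes, against 9.95% of all genes. At an unadjusted p under 0.05, 5 were higher and 2 were lower with limma, where 16.7% and 15.1% of all genes were. The median log2 fold change was 0.84 over the 10 genes and −0.00 over all genes. All 10 genes passed the minimum of 0.1 FPKM, but Ptgs2 and Alox5 passed it only through METTL3-HKD mice, so these counts describe the genes and test nothing. The limma p-values set each difference against the spread between these mice, moderated by a mean-variance trend over all genes tested.

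**Figure D1:**
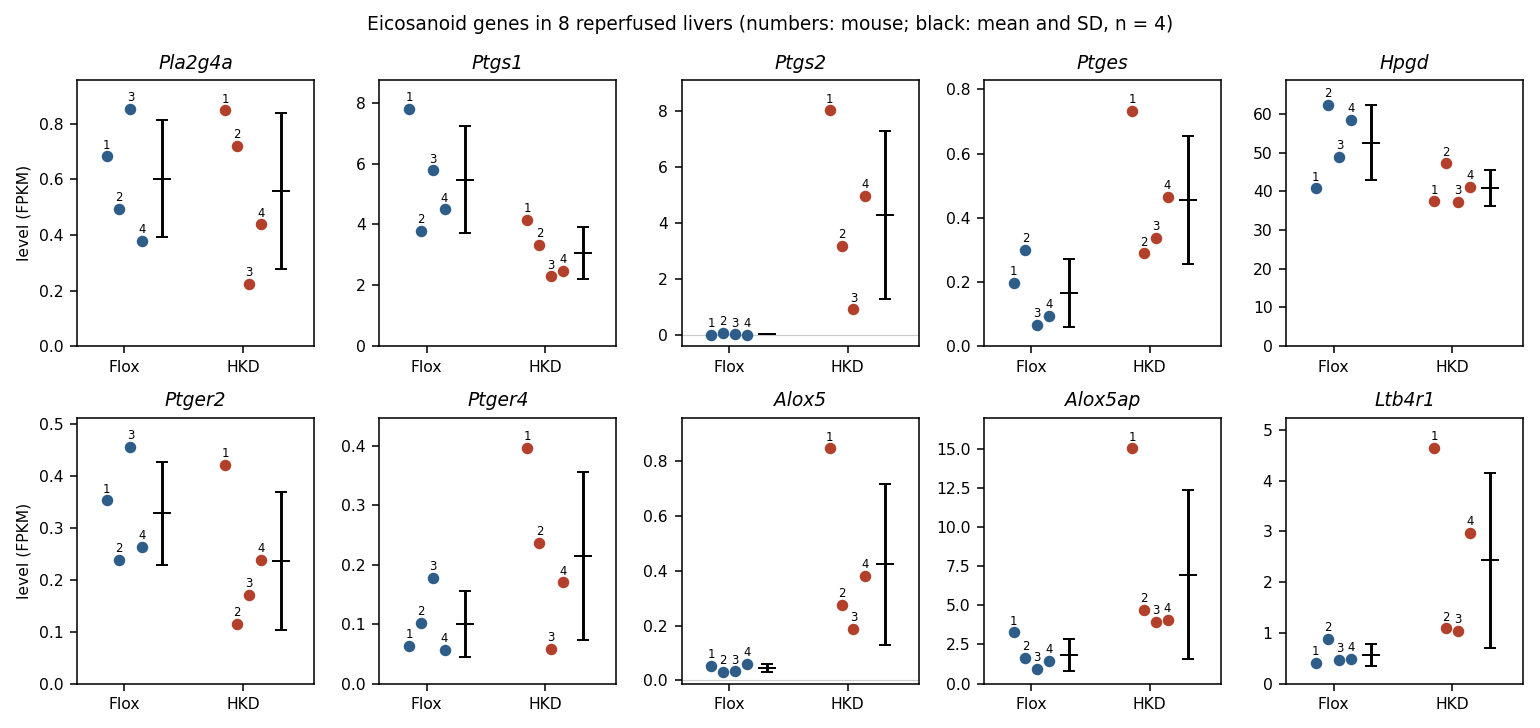
Level of each of the 10 genes in FPKM (vertical axis, linear and separate for each gene) in 4 METTL3-Flox (blue) and 4 METTL3-HKD (red) livers. Numbers give the mouse, and black marks give the mean and SD. In Ptgs2, Alox5, Alox5ap and Ltb4r1, all red points lie above all blue points, and METTL3-HKD liver 1 is the highest METTL3-HKD liver in 9 of the 10 genes.

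The order of the levels differed between the groups. In METTL3-Flox mice, Hpgd had the highest mean (52.6 ± 9.72 FPKM, SD, n = 4), followed by Ptgs1 (5.47 FPKM), Alox5ap (1.82 FPKM), Pla2g4a (0.602 FPKM), Ltb4r1 (0.563 FPKM), Ptger2 (0.327 FPKM), Ptges (0.164 FPKM), Ptger4 (0.10 FPKM), Alox5 (0.0435 FPKM) and Ptgs2 (0.0171 FPKM). Only 3 of the 9 pairs of neighbours in this order had ranges that did not overlap, namely those from Hpgd down to Pla2g4a. In METTL3-HKD mice, Hpgd was again first (40.8 ± 4.65 FPKM, SD, n = 4), followed by Alox5ap (6.94 FPKM), Ptgs2 (4.27 FPKM), Ptgs1 (3.06 FPKM), Ltb4r1 (2.43 FPKM), Pla2g4a (0.558 FPKM), Ptges (0.456 FPKM), Alox5 (0.423 FPKM), Ptger2 (0.236 FPKM) and Ptger4 (0.215 FPKM). There, only Hpgd against Alox5ap and Ltb4r1 against Pla2g4a had ranges that did not overlap, which made 2 of 9 pairs. Ptgs2 thus stood last in METTL3-Flox mice and behind only Hpgd and Alox5ap in METTL3-HKD mice.

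Pla2g4a (ENSMUSG00000056220, chromosome 1 of GRCm38, 149829618 to 149961290, minus strand) gave no call. Its level was 0.848, 0.720, 0.225 and 0.438 FPKM in the METTL3-HKD group, against 0.683, 0.494, 0.854 and 0.379 FPKM in the METTL3-Flox group. The groups overlapped over most of their range. Its log2 fold change was −0.16, with a 95% interval from −0.99 to 0.66 (limma, adjusted p = 0.798).

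Of the cyclooxygenases, Ptgs2 was called higher in METTL3-HKD mice and Ptgs1 was not called, with log2 fold changes of opposite sign. Ptgs2, the inducible cyclooxygenase (ENSMUSG00000032487, chromosome 1 of GRCm38, 150100031 to 150108227, plus strand), had 8.02, 3.18, 0.907 and 4.96 FPKM in the METTL3-HKD group. In the METTL3-Flox group it had 0, 0.0541, 0.0144 and 0 FPKM. The highest METTL3-Flox liver held 4 reads and the lowest METTL3-HKD liver held 75 reads, so the groups were far apart, although METTL3-HKD livers 1 and 3 also differed widely. The fitted log2 fold change of Ptgs2 was 4.89 (limma, SE 0.559 and adjusted p = 0.00281), and the exact permutation test of the FPKM gave p = 0.0286, the smallest value that 4 mice against 4 allow. Because METTL3-Flox mice held 5 reads in all, the fitted value depends on the pseudocount. It was 2.16 with a pseudocount of 1 FPKM and 7.67 with voom on whole reads, and Ptgs2 was called under all 16 alternatives. Read totals of 1505 against 5 gave a scaled ratio of 247 with a 95% interval from 105 to 761, which covers counting error only and not the spread between mice.

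Ptgs1, the constitutive cyclooxygenase (ENSMUSG00000047250, chromosome 2, 36230426 to 36252272, plus strand), had 4.16, 3.32, 2.29 and 2.47 FPKM in the METTL3-HKD group, against 7.81, 3.79, 5.78 and 4.49 FPKM in the METTL3-Flox group. Only METTL3-HKD liver 1 reached into the METTL3-Flox range. On the log2 scale the fold change was −0.80 (limma, SE 0.253 and adjusted p = 0.0610, with an exact permutation p = 0.0571), which did not pass the threshold. It passed under 2 of 16 alternatives, over which the adjusted p ran up to 0.152 (limma). The 2 were protein-coding genes alone (adjusted p = 0.0467 from limma) and a minimum of 1 FPKM (adjusted p = 0.0482 from limma). Scaled to reads on genes, the log2 fold change was −0.59, where the median of all genes was 0.20.

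Within each liver, the ratio of the genes does not depend on the scaling between libraries. Ptgs2 made up 65.9%, 48.9%, 28.3% and 66.8% of the summed cyclooxygenase FPKM in the METTL3-HKD group and 0%, 1.41%, 0.248% and 0% in the METTL3-Flox group. The sum itself overlapped between the groups, at 7.33 ± 3.71 FPKM (SD, n = 4) for METTL3-HKD, against 5.48 ± 1.75 FPKM (SD, n = 4) for METTL3-Flox. The share of Ptgs2 thus separated the groups without overlap, while the summed level did not.

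**Figure D2:**
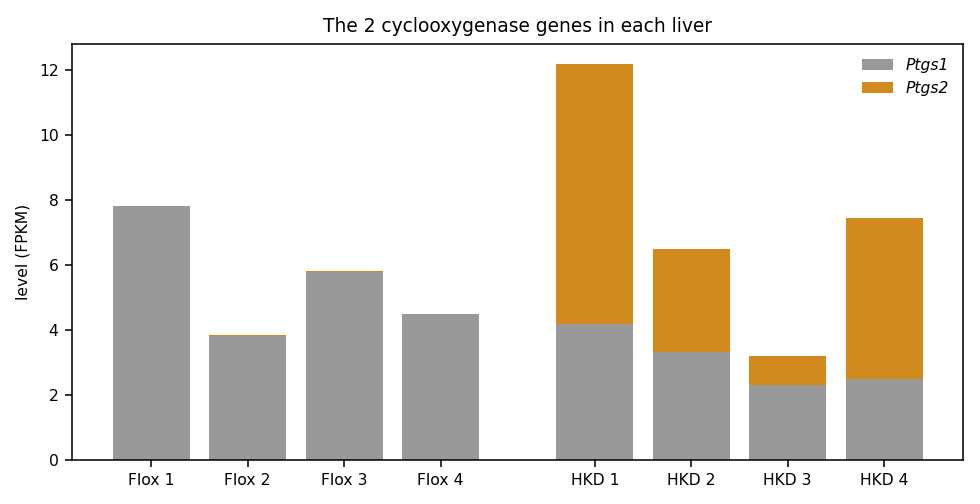
Stacked bars, starting at 0, of Ptgs1 (grey) and Ptgs2 (orange) in FPKM for each liver. Ptgs2 makes up at most 1.41% of the bar in METTL3-Flox livers and at least 28.3% in METTL3-HKD livers, and the heights of the bars overlap.

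Ptgs1 was read beside the markers of Kupffer cells, the resident liver macrophages. Of 6 such markers, 5 were called lower (Clec4f, Vsig4, Timd4, Cd5l and C6). The 6 summed to 98.0 to 148 FPKM in METTL3-HKD livers and 202 to 409 FPKM in METTL3-Flox livers. Within the METTL3-HKD group, C6 went against the other called markers, with 14.2, 16.3, 51.8 and 37.3 FPKM, where Clec4f had 30.4, 36.7, 17.8 and 15.5 FPKM. The sum thus mixes genes of unlike pattern. Platelet markers, another cell type with much Ptgs1, had 1 of 4 tested genes higher (Ppbp) and summed to 3.28 to 10.5 FPKM against 1.17 to 3.35 FPKM. The part of either in the level of Ptgs1 was not tested. In bulk liver, fewer cells of a type and less RNA per cell cannot be told apart.

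The 250 bases before the annotated start are shown for the 3 called genes that have an entry in the RefSeq promoter table (Ptgs2, Alox5 and Ltb4r1) and, for contrast, for Ptgs1. The table covers 9 of the 10 genes in GRCm38.p6, all but Alox5ap. Capitals mark matches, on either strand, to a GC box (GGGCGG) or a C/EBP site (TTGCNNAA). The windows lie at chr1:150099781-150100030 (plus strand, Ptgs2), chr2:36230176-36230425 (plus strand, Ptgs1), chr6:116461179-116461428 (minus strand, Alox5) and chr14:55765712-55765961 (plus strand, Ltb4r1).
Ptgs2: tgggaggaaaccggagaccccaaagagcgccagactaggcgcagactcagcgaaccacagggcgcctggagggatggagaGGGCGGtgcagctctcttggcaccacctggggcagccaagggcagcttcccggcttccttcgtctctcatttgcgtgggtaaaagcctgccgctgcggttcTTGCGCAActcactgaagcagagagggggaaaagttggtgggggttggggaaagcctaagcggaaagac
Ptgs1: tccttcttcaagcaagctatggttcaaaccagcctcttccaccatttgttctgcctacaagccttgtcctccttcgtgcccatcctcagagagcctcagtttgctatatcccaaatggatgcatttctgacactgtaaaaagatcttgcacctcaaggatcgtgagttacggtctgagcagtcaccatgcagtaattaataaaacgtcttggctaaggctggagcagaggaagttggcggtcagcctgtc
Alox5: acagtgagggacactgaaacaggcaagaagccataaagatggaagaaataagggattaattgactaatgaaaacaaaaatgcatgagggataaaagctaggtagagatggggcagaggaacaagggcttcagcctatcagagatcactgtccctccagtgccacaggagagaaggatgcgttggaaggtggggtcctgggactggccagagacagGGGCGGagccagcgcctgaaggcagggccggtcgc
Ltb4r1: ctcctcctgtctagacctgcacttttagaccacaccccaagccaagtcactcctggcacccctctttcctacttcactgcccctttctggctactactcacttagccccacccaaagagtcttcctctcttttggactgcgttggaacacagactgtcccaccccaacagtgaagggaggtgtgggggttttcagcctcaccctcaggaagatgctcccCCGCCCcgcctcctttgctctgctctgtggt
The Ptgs2 window holds the palindrome TTGCGCAA from 69 to 62 bases before the start, which matches the C/EBP site on both strands. Such a site is in 9.55% of the windows of all 27025 genes in the table, counted by the first window of each gene, and Ptgs2 was the only one of the 9 genes to hold it. A GC box is in 32.9% of all windows and in the windows of Ptgs2, Ptges, Hpgd, Ptger4, Alox5 and Ltb4r1. The Ptgs1 window holds none of the motifs searched, and its GC content was 48%, against 61.6% for Ptgs2. Further motifs searched on both strands were a TATA box (TATAAA), an AP-1 site (TGANTCA), a CRE core (TGACG), an E-box (CACGTG) and a strict and a looser kappaB form, which overlap each other. They are in 13%, 6.87%, 17.9%, 6.05%, 1.4% and 4.6% of all windows, and only a second Pla2g4a window matched any of them, with a TATA box on the opposite strand. A match describes letters in this window and is no evidence of binding. The lack of a match says nothing about sites beyond these 250 bases, such as those after the start.

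Ptges, the inducible prostaglandin E synthase that works with Ptgs2 (ENSMUSG00000050737, chromosome 2, 30889471 to 30929863, minus strand), had 0.734, 0.289, 0.338 and 0.465 FPKM in the METTL3-HKD group. In the METTL3-Flox group it had 0.197, 0.299, 0.0669 and 0.0948 FPKM. METTL3-HKD liver 2 and METTL3-Flox liver 2 overlapped, and the other livers were apart. The log2 fold change of 1.10 (limma, SE 0.362 and adjusted p = 0.0711, with an exact permutation p = 0.0571) rested on 4 to 58 reads per liver and did not pass the threshold. It passed under 2 of 15 alternatives, over which the adjusted p ran up to 0.180 (limma). The 2 were scaling to reads on genes (adjusted p = 0.0470 from limma) and protein-coding genes alone (adjusted p = 0.0484 from limma). Scaling to reads on genes also moved the median of all genes to 0.20.

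Hpgd, the enzyme that inactivates prostaglandin E2 (ENSMUSG00000031613, chromosome 8, 56294585 to 56321043, plus strand), was the most abundant of the 10 genes in every liver. It had 37.4, 47.2, 37.4 and 41.2 FPKM in the METTL3-HKD group, against 40.8, 62.3, 48.8 and 58.5 FPKM in the METTL3-Flox group. Livers of the groups overlapped, with METTL3-Flox liver 1 the lowest of its group. A log2 fold change of −0.35 was fitted (95% interval from −0.68 to −0.02, adjusted p = 0.134 from limma), and without METTL3-Flox liver 1 it was −0.47 and passed (adjusted p = 0.0428 from limma). It passed under 1 of 16 alternatives in all. With libraries scaled to reads on genes it was −0.14, where the median of all genes was 0.20.

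The log2 ratio of Ptges to Hpgd was −5.49, −6.93, −6.42 and −6.19 in the METTL3-HKD group and −7.10, −7.29, −8.19 and −8.23 in the METTL3-Flox group, each after addition of 0.1 FPKM. Every METTL3-HKD liver thus had more Ptges per Hpgd than every METTL3-Flox liver, by 1.45 log2 units on average, although neither gene was called alone. In METTL3-Flox livers 3 and 4, Ptges lay below the 0.1 FPKM added, so the size of this difference depends on that addition. With nothing added, an alternative chosen after seeing the data, the difference was 1.97, again without overlap. Hpgd stayed more abundant than Ptges in all 8 livers. The ratio was described and not tested, since the genes were chosen with results known.

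The prostaglandin E2 receptors were low and neither was called. Ptger2 (ENSMUSG00000037759, chromosome 14, 44988195 to 45003820, plus strand) had 0.421, 0.115, 0.171 and 0.238 FPKM in the METTL3-HKD group, against 0.352, 0.238, 0.456 and 0.263 FPKM in the METTL3-Flox group. METTL3-HKD liver 1 lay within the METTL3-Flox range, and the other 3 livers lay below its lower end, METTL3-HKD liver 4 only just. This gave a log2 fold change of −0.40 (95% interval from −1.13 to 0.33, adjusted p = 0.433 from limma).

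Ptger4 (ENSMUSG00000039942, chromosome 15, 5206661 to 5244187, minus strand) had 0.396, 0.236, 0.0583 and 0.170 FPKM in the METTL3-HKD group, against 0.0635, 0.102, 0.178 and 0.0561 FPKM in the METTL3-Flox group. METTL3-HKD livers 1 and 2 lay above the METTL3-Flox range and livers 3 and 4 lay within it. This gave a log2 fold change of 0.58 (95% interval from −0.33 to 1.48, adjusted p = 0.356 from limma). These values are uncertain, because 82 exon bases of Ptger4 are shared with Ttc33 on the opposite strand, which had 5.96 to 9.16 FPKM, and the strand setting is not given in the sources used here. At the level of Ttc33, those bases would hold 7.43 to 15 reads per liver, while 6 to 53 reads were assigned to Ptger4.

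Alox5, Alox5ap and Ltb4r1, the 3 genes of the leukotriene branch among the 10, were all called higher. Alox5, which encodes arachidonate 5-lipoxygenase (ENSMUSG00000025701, chromosome 6, 116410077 to 116461178, minus strand), had 0.848, 0.277, 0.189 and 0.380 FPKM in the METTL3-HKD group, against 0.0514, 0.0301, 0.0320 and 0.0605 FPKM in the METTL3-Flox group. The groups did not overlap, but METTL3-Flox livers held 2 to 4 reads each. The log2 fold change was 1.72 (limma, SE 0.383 and adjusted p = 0.0206, with an exact permutation p = 0.0286). It was 0.43 with a pseudocount of 1 FPKM (adjusted p = 0.0557 from limma), and the call was also lost without METTL3-Flox liver 2 (1.68, adjusted p = 0.0501 from limma) and without METTL3-Flox liver 3 (1.68, adjusted p = 0.0573 from limma). Reads of 134 against 11 gave a scaled ratio of 9.98, with a 95% counting interval from 5.40 to 20.5.

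Alox5ap, the 5-lipoxygenase activating protein (ENSMUSG00000060063, chromosome 5, 149264767 to 149288153, plus strand), had 15, 4.73, 3.94 and 4.09 FPKM in the METTL3-HKD group, against 3.27, 1.66, 0.926 and 1.44 FPKM in the METTL3-Flox group. The groups did not overlap, and METTL3-HKD liver 1 stood far above the other 3 livers of its group. The log2 fold change of Alox5ap was 1.76 (limma, SE 0.478 and adjusted p = 0.0393, with an exact permutation p = 0.0286). It was 1.31 without METTL3-HKD liver 1 (adjusted p = 0.0610 from limma). The call held in only 2 of the 8 fits that left out 1 liver, those without METTL3-HKD liver 3 or METTL3-Flox liver 1, and the log2 fold change over these fits ran from 1.31 to 2.08 (adjusted p up to 0.0998 from limma). Its exons share 189 bases with the antisense gene Gm19719, which had at most 0.0585 FPKM.

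Ltb4r1, the leukotriene B4 receptor (ENSMUSG00000046908, chromosome 14, 55765962 to 55768494, plus strand), had 4.64, 1.09, 1.03 and 2.97 FPKM in the METTL3-HKD group, against 0.404, 0.888, 0.472 and 0.490 FPKM in the METTL3-Flox group. METTL3-HKD livers 2 and 3 lay just above METTL3-Flox liver 2, and livers 1 and 4 lay well above. The log2 fold change was 1.72 (limma, SE 0.467 and adjusted p = 0.0398, with an exact permutation p = 0.0286). It was called in 2 of the 8 fits that left out 1 liver, those without METTL3-HKD liver 2 or 3, and ranged from 1.33 without METTL3-HKD liver 1 to 2.01 over these fits (adjusted p from 0.0224 to 0.0961, limma). For Ltb4r2, the low-affinity receptor next to it on the chromosome, the log2 fold change was −0.56 (adjusted p = 0.147 from limma).

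Neutrophil markers, like the leukotriene genes, were higher in METTL3-HKD mice. All 7 (S100a8, S100a9, Ly6g, Csf3r, Cxcr2, Mmp8 and Retnlg) were called higher, and their summed level was 330 to 1614 FPKM in METTL3-HKD livers and 12.8 to 44.2 FPKM in METTL3-Flox livers. Ly6g had 0.235 to 3.38 FPKM in METTL3-HKD livers and 0 to 0.149 FPKM in METTL3-Flox livers. METTL3-HKD liver 1, the highest in Alox5, Alox5ap and Ltb4r1, also had the highest sum. Among METTL3-Flox livers, liver 1 had the highest sum and the highest Alox5ap but the lowest Ltb4r1. Of 7 markers of monocytes and macrophages, Ccr2 was called higher and 0 were called lower. Lyz2 (higher) and Csf1r (lower, log2 fold change −0.58) had an unadjusted p under 0.05 with limma. Fcgr1 also had a negative log2 fold change (−0.30), so the list was mixed. The markers summed to 97.0 to 236 FPKM in METTL3-HKD livers and 63.7 to 95.6 FPKM in METTL3-Flox livers. The part of these cells in the leukotriene genes and in Ptgs2 was not tested.

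The leukotriene genes and Ptgs2 were also set against the neutrophil markers. S100a8 and S100a9 made up 76.9% to 92.5% of the marker sum in each liver. Per 1000 FPKM of summed neutrophil markers, Alox5ap had 7.53 to 12.5 FPKM in METTL3-HKD livers and 58.6 to 74.0 FPKM in METTL3-Flox livers. Ltb4r1 had 2.87 to 5.47 FPKM against 9.14 to 36.7 FPKM, and Alox5 had 0.525 to 0.731 FPKM against 1.16 to 2.50 FPKM. Ptgs2 went the other way, with 2.75 to 9.12 FPKM in METTL3-HKD livers and 0 to 2.08 FPKM in METTL3-Flox livers. For each of these 4 genes, the ranges did not overlap, but this depended on the marker. The marker sum itself was 330 to 1614 FPKM in METTL3-HKD livers and 12.8 to 44.2 FPKM in METTL3-Flox livers. Any gene that rose less than the markers is therefore lower per marker, and the share of all genes that were lower was not counted. The values per marker thus describe the genes and test nothing. Per single marker, which was examined after the data were seen for the 6 markers above 0 in all livers, Ltb4r1 stayed lower without overlap for 6, Alox5ap for 5 and Alox5 for 4. Per 1000 FPKM of Csf3r, the receptor for the neutrophil growth factor G-CSF, Alox5 had 25 to 56.1 FPKM in METTL3-HKD livers and 25.9 to 61.3 FPKM in METTL3-Flox livers, where it rested on 2 to 4 reads per liver. Alox5 also overlapped per Retnlg, and Alox5ap overlapped per Csf3r. Ptgs2 was higher without overlap for 4 of the 6 markers and overlapped per Mmp8, per Retnlg and per the sum without S100a8 and S100a9. Per 1000 FPKM of monocyte and macrophage markers, of which Lyz2 made up 52.7% to 80.5%, Alox5ap had 36.7 to 63.7 FPKM against 12.2 to 34.2 FPKM, Alox5 had 1.82 to 3.92 FPKM against 0.342 to 0.949 FPKM, and Ltb4r1 overlapped between the groups.

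**Figure D3:**
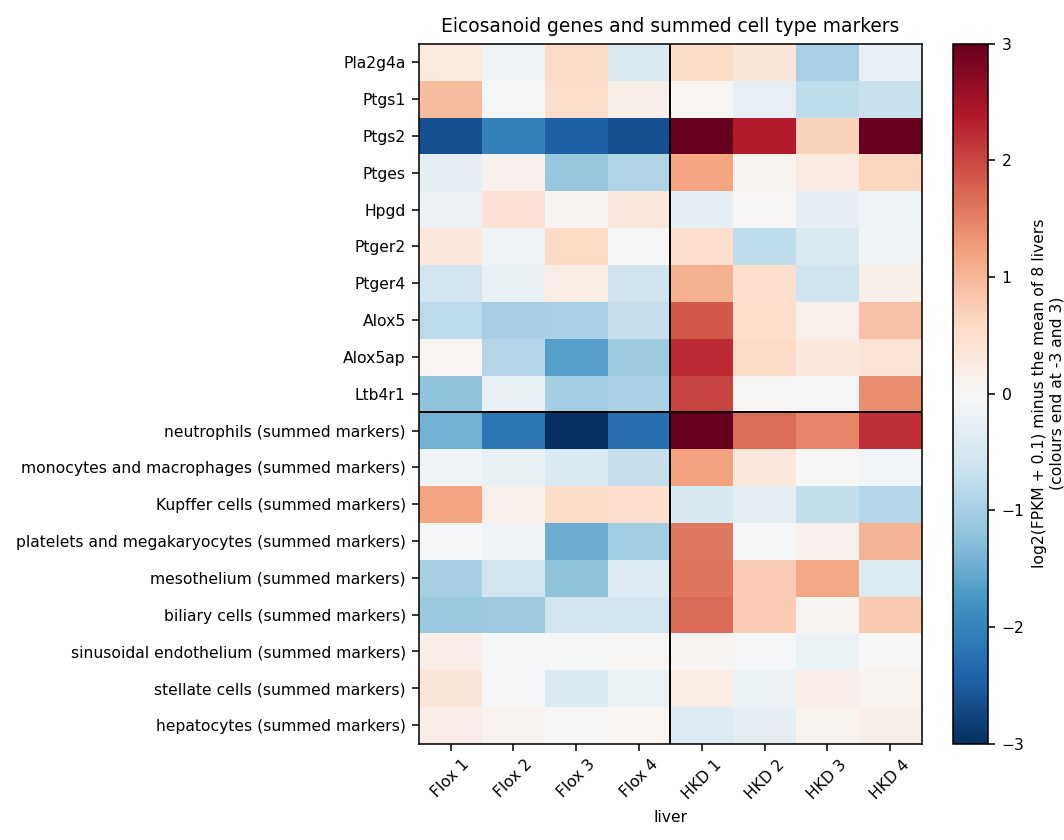
Heat map of log2(FPKM + 0.1) minus the mean of the 8 livers (colour) for the 10 genes (upper rows) and the summed markers of 9 cell types (lower rows), with METTL3-Flox livers on the left and METTL3-HKD livers on the right. Ptgs2 and the neutrophil markers show the widest span between groups, and METTL3-HKD liver 1 is the highest liver in Alox5, Alox5ap, Ltb4r1 and the neutrophil sum.

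The ratio of Alox5ap to Alox5 depended on the FPKM added before the logarithm. With 0.1 FPKM added, which is above every METTL3-Flox value of Alox5, the log2 ratio overlapped, at 3.65 ± 0.374 (SD, n = 4) for METTL3-HKD, against 3.61 ± 0.662 (SD, n = 4) for METTL3-Flox. With nothing added, an alternative chosen after seeing the data, Alox5ap was 17.7, 17.1, 20.9 and 10.8 times Alox5 in METTL3-HKD livers and 63.6, 54.9, 28.9 and 23.9 times Alox5 in METTL3-Flox livers, with no overlap. The latter values rest on 2 to 4 reads of Alox5 per liver, so the direction of this ratio is not settled. The log2 ratio of Ptger4 to Ptger2 was −0.13 ± 0.594 (SD, n = 4) and −1.11 ± 0.310 (SD, n = 4), with overlap between the groups, also with nothing added. The log2 ratio of Ptgs2 to Ptgs1, with 0.1 FPKM added, was 0.15 ± 1.05 (SD, n = 4) against −5.54 ± 0.679 (SD, n = 4), and it was the widest of the 4 ratios examined. Ptgs2 had at most 0.0541 FPKM in METTL3-Flox livers, below the 0.1 FPKM added, so the size of this difference depends on that addition.

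Across METTL3-HKD livers, liver 1 had the highest level in 9 of the 10 genes, all but Hpgd, and liver 3 had the lowest level in 8 genes, all but Ptges and Ptger2. The spread within METTL3-HKD mice was thus shared by genes whose groups differed and genes whose groups did not. How many of all genes had this order was not counted, so it is not known whether it is particular to these genes. Without METTL3-HKD liver 1, the calls were 2 of 10, namely Ptgs2 and Alox5.

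Of 63 further eicosanoid genes found in the table, 42 were tested, 6 were called higher (14.3%, against 9.05% of all genes) and 1 was called lower (2.38%, against 6.63% of all genes). Their median log2 fold change was −0.01. Of the 42 genes, 5 averaged under 0.1 FPKM in METTL3-Flox mice and were tested only through METTL3-HKD mice, among them Akr1c18 and Aloxe3, which are 2 of the 6 called higher, so these shares describe the list and test nothing. Another 21 had a mean under 0.1 FPKM, among them the receptors Ptger1, Ptger3, Ptgfr, Ptgdr and Ptgdr2, and 6 of these 21 were listed at 0 in all 8 livers.

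Among 6 phospholipases and lipases tested, Pla2g15, a lysosomal phospholipase, fell by 0.51 on the log2 scale (limma, SE 0.103 and adjusted p = 0.0150), with 5.33 to 6.41 FPKM in METTL3-HKD livers and 7.79 to 9.83 FPKM in METTL3-Flox livers. Mgll, the monoacylglycerol lipase that also supplies arachidonic acid, had a log2 fold change of −0.15 (limma, adjusted p = 0.636). Of 8 prostanoid synthases tested, Ptgis and Akr1c18 rose. Ptgis, prostacyclin synthase, had 1.92 to 5.44 FPKM against 0.905 to 1.23 FPKM (log2 fold change 1.27, adjusted p = 0.0239 from limma). Akr1c18, an aldo-keto reductase that also acts on progesterone, had 18.2, 28.4, 0.963 and 9.72 FPKM in the METTL3-HKD group and at most 0.154 FPKM, or 3 reads, in METTL3-Flox livers (log2 fold change 5.50, adjusted p = 0.00750 from limma). METTL3-HKD liver 3 was again the lowest of its group, and Akr1c18 was tested only through its METTL3-HKD level. Tbxas1, thromboxane synthase, and the constitutive synthases Ptges2 and Ptges3 had log2 fold changes of −0.32, 0.04 and 0.31, none called.

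Of 5 genes of prostanoid breakdown and transport, Abcc4, a pump that exports prostaglandins, rose by 0.95 on the log2 scale (adjusted p = 0.0454 from limma), from 0.463 to 0.603 FPKM in METTL3-Flox livers to 0.783 to 1.90 FPKM in METTL3-HKD livers. Slco2a1, the prostaglandin uptake carrier, had −0.06 (adjusted p = 0.833 from limma). Of 2 prostanoid receptors tested, the prostacyclin receptor Ptgir had a log2 fold change of 1.26 (limma, adjusted p = 0.0576) and the thromboxane receptor Tbxa2r had −0.16 (adjusted p = 0.786 from limma), so neither was called.

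Of 9 tested genes of leukotriene synthesis and breakdown, Cyp4f18 and Abcc1 rose. Cyp4f18, which oxidises leukotriene B4 in mouse neutrophils, had 13.9, 3.30, 1.49 and 3.89 FPKM in the METTL3-HKD group and 0.177 to 0.872 FPKM in METTL3-Flox livers (log2 fold change 3.08, adjusted p = 0.0151 from limma). Abcc1, which exports leukotriene C4, had 0.422 to 0.856 FPKM against 0.148 to 0.205 FPKM (log2 fold change 1.25, adjusted p = 0.0134 from limma). Lta4h, which makes leukotriene B4 from the product of Alox5, and Ltc4s, which makes leukotriene C4, had log2 fold changes of −0.10 (adjusted p = 0.577 from limma) and 0.02 (adjusted p = 0.980 from limma). Neither was called, and Ltc4s held only 0 to 8 reads per liver. Among 4 leukotriene receptors tested, 0 were called, and 1 (Ltb4r2, lower) had an unadjusted p under 0.05 with limma. Of 3 other lipoxygenases, Aloxe3, which is known from skin, had at most 3 reads per METTL3-Flox liver and 0.476 to 2.09 FPKM in METTL3-HKD livers (adjusted p = 0.00360 from limma, on a gene that was tested only through its METTL3-HKD level). Fpr2, a receptor for lipoxin A4 and for formyl peptides, had a log2 fold change of 1.29 (limma, adjusted p = 0.0889).

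**Figure D4:**
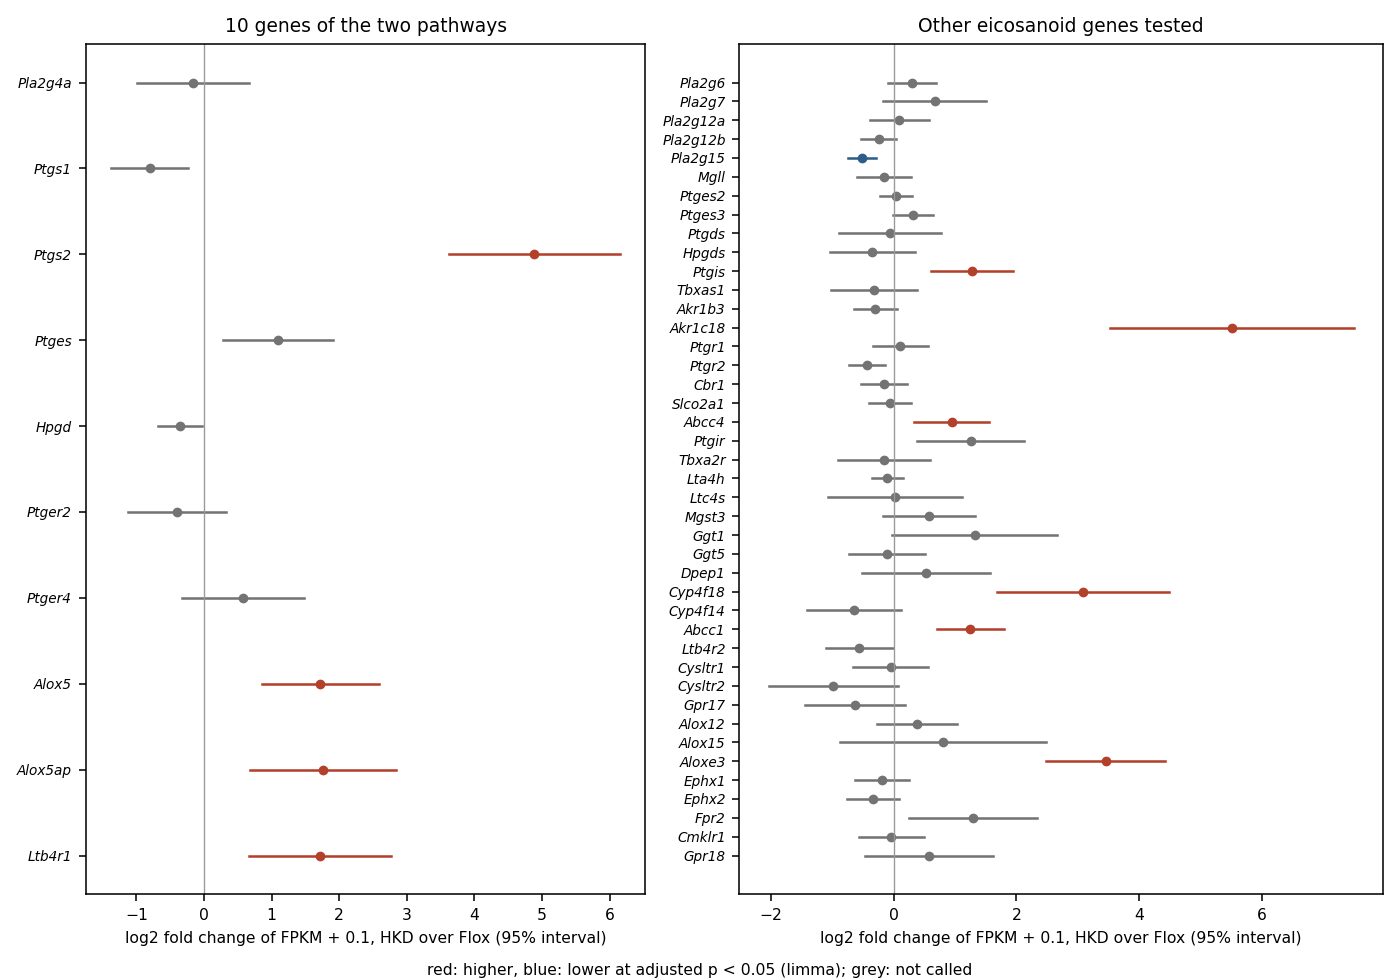
Log2 fold change of FPKM + 0.1 (METTL3-HKD over METTL3-Flox, horizontal axis) with the 95% interval of limma for the 10 genes (left) and 42 further eicosanoid genes (right). Red marks genes called higher (4 left, 6 right), blue marks Pla2g15, the 1 gene called lower, and grey marks genes not called.

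Genes with the most similar pattern over the 8 livers were sought for Ptgs2, Ptges, Alox5ap and Hpgd, by the root-mean-square difference of log2(FPKM + 0.1) after each gene was centred on its mean. The 3 nearest to Ptgs2 were Osm, a cytokine (0.429), Ier3, an immediate early gene (0.469), and Trem1, a myeloid receptor (0.501), where Ptgs2 itself deviated from its mean by 2.57. The 3 nearest to Alox5ap, which deviated by 1.13, were Havcr2 (0.301), Coro1a (0.341) and Thbd (0.342). Those nearest to Ptges, which deviated by 0.715, were Sulf1 (0.159), Arid5a (0.178) and Smoc2 (0.193). Those nearest to Hpgd, which deviated by 0.263, were Slc2a9 (0.0754), Phf11c (0.0787) and Cryz (0.0909). These distances describe 8 livers of 2 groups, so a gene that differs between the groups by the same amount is near by that alone.

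METTL3 methylates adenosines in a consensus that includes GGACT, and AU-rich elements of unstable mRNAs are built around ATTTA, so both were counted on the sense strand of the longest protein-coding transcript of each gene in GENCODE M21. Over 13104 tested genes the median was 1.05 GGACT and 0.792 ATTTA per kilobase. Ptgs2 held 8 GGACT (1.80 per kilobase, above 83.3% of genes) and 15 ATTTA (3.37 per kilobase, above 98.2% of genes) in 4453 bases. Alox5ap held 4 GGACT in 1251 bases (3.20 per kilobase, above 98.3% of genes), and Alox5 held 5 (1.77 per kilobase, above 82.6%). Hpgd held 0 GGACT, as did 8.07% of genes, and Pla2g4a held 1. Both, though not called, were also rich in ATTTA. Pla2g4a held 7 (2.45 per kilobase, above 92.9% of genes) and Hpgd held 4 (2.38 per kilobase, above 92.1% of genes). Ptges and Ltb4r1 held 0 ATTTA, as did 21.5% of genes. Ptger2, which was not called, had 7 GGACT (1.90 per kilobase, above 85.9%). These are counts of letters, and methylation was not measured in these files.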

How the data were processed

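The authors deposited FPKM for 54532 genes in 8 livers, with gene lengths. The submitters' processing notes name the builds GRCm38 and mm10, while the aligner, counting and strand setting are not given in the sources used here. FPKM times gene length fell on whole multiples of 1 step per library (within 0.05) for 100% of non-zero values, so whole reads were rebuilt. These effective library sizes differ from the reads on genes, so the deposited values had been scaled between libraries. All 10 genes had the same coordinates and exon length in GENCODE M21.

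Groups came from sample titles. Genes averaging 0.1 FPKM or more were compared on log2(FPKM + 0.1) with limma 3.58.1 (R 4.3.3, mean-variance trend, two-sided, Benjamini-Hochberg over all 16645 genes), with exact permutation tests of single genes over 70 arrangements (scipy 1.17.1). The fit was tested on simulated data. The gene lists and the 10 genes were chosen with earlier results of these data known. Named genes are the 10 genes, called genes of a fixed eicosanoid list or those of a stated role, the 3 nearest genes by pattern, and fixed cell type markers. The alternatives were a pseudocount or a minimum of 1 FPKM, no minimum, scaling to reads on genes, voom, no trend, a replicate block, protein-coding genes only, and the omission of each liver. Read intervals (95%, exact) cover counting error only. Of the fixed eicosanoid list, Prxl2b was not matched by symbol.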

Additional observations from a re-analysis of the deposited data

Results flagged for a closer look

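In METTL3-HKD mice, Alox5ap had 15 FPKM in liver 1, and the gap to the next liver made up 0.929 of the range of the group, above Dixon's critical value for 4 samples. This was the 1 such case among 20 groups of 4 livers (10 genes in 2 groups), where chance gives about 1 in 20. The same liver had the highest sum of neutrophil markers, at 1614 FPKM, and without it the log2 fold change of Alox5ap was 1.31 (adjusted p = 0.0610 from limma).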

How the results depend on the processing

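Ptgs2 kept its call under all 16 alternatives, with log2 fold changes from 2.16 to 7.67 and adjusted p from 0.000159 to 0.0357 (limma). Alox5 lost its call under 3 of 15 alternatives, Alox5ap under 10 of 16 and Ltb4r1 under 11 of 16, with adjusted p up to 0.0573, 0.0998 and 0.0961 (limma). Of the 4 genes called higher, which were the same as those upregulated, 1 was left with a pseudocount of 1 FPKM, and 2 were left with no minimum, with voom and with no mean-variance trend, in both counts. One of the 10 genes (1 against 0) was called lower with the minimum of 1 FPKM and among protein-coding genes. Pla2g4a changed sign when scaled to reads on genes (0.027), without METTL3-HKD liver 3 (0.14) and without METTL3-Flox liver 3 (0.0025), and ran from −0.38 to 0.14 when 1 liver was left out. For the wider eicosanoid list, 3 genes in place of 6 were higher with the minimum of 1 FPKM, and in place of 1, 2 genes were lower with that minimum, with voom and among protein-coding genes, and 0 when scaled to reads on genes and with the replicate block. For all genes, the counts moved to 2310 higher and 374 lower when scaled to reads on genes, to 971 and 645 with the block, to 682 lower with no minimum, and, for upregulated genes, from 782 to 317 with a pseudocount of 1 FPKM and to 450 with a minimum of 1 FPKM. When each liver was left out in turn, the 10 genes gave 1 to 4 higher, 1 to 4 upregulated and 0 to 1 lower, the wider list 4 to 7 higher and 1 to 2 lower, and all genes 747 to 1659 higher, 355 to 1148 lower and 492 to 960 upregulated. The smallest counts of higher calls among the 10 genes came without METTL3-Flox liver 2 and without METTL3-Flox liver 3 (1 each). The causes were not tested. With nothing added to the FPKM, an alternative chosen after seeing the data, the difference of the log2 ratio of Alox5ap to Alox5 between the groups moved from 0.04 to −1.29. With the replicate number as a block, 3 of the 10 genes stayed higher. The numbers share no stated litter or day. Same-numbered livers correlated by −0.0838 to 0.0711 in their deviations, and 1 of 4 METTL3-HKD livers correlated best with its own number. These values show no pairing by number, but they cannot exclude one. With the block, the SE of Alox5ap fell from 0.478 to 0.165 (adjusted p = 0.00875 from limma), while that of Ltb4r1 went from 0.467 to 0.491 (adjusted p = 0.0798 from limma). Few reads limit Ptgs2, Alox5, Ptges and Ptger4 in METTL3-Flox mice, with 5, 11, 40 and 41 reads in all.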

Other observations

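Markers of further cell types were compared beside the 10 genes. Biliary markers had 4 of 5 genes called higher (Krt19, Krt7, Sox9 and Spp1) and summed to 119 to 369 FPKM in METTL3-HKD livers and 52.5 to 77.6 FPKM in METTL3-Flox livers. Most of this sum was Spp1 alone, with 109 to 355 FPKM and 46.4 to 73.5 FPKM. Mesothelial markers had 3 of 5 higher (Upk3b, Upk1b and Lrrn4), with sums of 1.74 to 7.31 FPKM and 0.958 to 1.76 FPKM. Stellate cell markers were mixed, with Des and Hgf higher and Lrat lower among 6. Of the sinusoidal endothelial, hepatocyte, T cell, B cell and mast cell markers tested (6, 6, 4, 2 and 2 genes), 0 were called by limma, and 1 endothelial gene (Pecam1, higher) had an unadjusted p under 0.05. Hepatocyte sums were 22121 to 32545 FPKM in METTL3-HKD livers and 28965 to 33198 FPKM in METTL3-Flox livers, and the lowest was METTL3-HKD liver 1.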
